A study of Homo sapiens with 11 samples.

Results

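The FKBP5 locus was taken as all peaks of 8 deposited lists that overlap chromosome 6, 35440000 to 35800000 in the hg19 genome. This window holds the body of FKBP5, 35541362 to 35696397 on the minus strand, with 100 kb to each side. The peaks were chosen by position alone, but the locus itself was selected on earlier results of these data, in which a region at its 5′ end was among the strongest H3K27ac gains with dexamethasone. The values below are therefore a description, with no test. It contained 35 of the 90458 peaks in the lists: 4 of the glucocorticoid receptor (GR) with the combination, 4 of GR with dexamethasone, 0 of the estrogen receptor (ER) in either ER list, and 8, 7, 7 and 5 of histone H3 acetylated at lysine 27 (H3K27ac) with the combination, dexamethasone, estradiol and vehicle. The peaks closest to the edges of the window were an H3K27ac peak of vehicle 12.5 kb inside it (−log10 q 94.92) and one of estradiol 2.6 kb outside it (111.17) on the 3′ side of the gene, and a GR peak of dexamethasone 53.5 kb inside it (32.81) and an H3K27ac peak of estradiol 88.6 kb outside it (16.82) on the 5′ side.

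The lists come from chromatin immunoprecipitation and sequencing in Ishikawa cells, a human endometrial cancer line, kept in hormone-depleted medium before treatment. GR was mapped after 1 h of 100 nM dexamethasone with 10 nM estradiol (the combination) and after 1 h of 100 nM dexamethasone, a synthetic GR ligand. ER was mapped after 1 h of the combination and after 1 h of 10 nM estradiol, its natural ligand. H3K27ac was mapped after 8 h of the combination, 100 nM dexamethasone, 10 nM estradiol or the vehicle DMSO. Each group is 1 library of 1 cell line, so no spread between replicates and no test between treatments can be given, and ER and GR with vehicle were not analysed here as lists. Usable tags numbered 5206574 (combination) and 6353466 (dexamethasone) for GR, 7625049 (combination) and 8508828 (estradiol) for ER, and 9657258, 9034395, 10852521 and 18508574 for H3K27ac with the combination, dexamethasone, estradiol and vehicle. The −log10 q, fold enrichment over control and summit pileup given below are the authors' own values for each peak. The control behind them differed between kinds of list, with 5735043 usable control tags for GR, 3479280 for ER and 14002417 for H3K27ac in the file headers. The series lists 1 control sample, labelled as IgG in one field and as input in another, and which control served which list is uncertain. These values rank peaks within a list and do not measure a change between lists.

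FKBP5 encodes FKBP51, an immunophilin that binds the chaperone Hsp90 in the complex that holds GR before it meets hormone, and that lowers the affinity of GR for its ligand. The gene is itself induced by GR in many tissues, which closes a short negative feedback loop, and it is widely used as a readout of glucocorticoid action. GR binds DNA mainly as a dimer at a palindromic element of 2 half-sites, and such elements have been described in introns of FKBP5 and upstream of it. H3K27ac marks active promoters and enhancers. FKBP5 transcript levels were not analysed here.

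The RefSeq promoter table (GRCh38.p14) lists an outer and an inner start of FKBP5, 39.7 kb apart, and both promoters are shown because acetylation was called at the outer end of the gene and, at 1 peak, deep inside it. Each sequence runs 5′ to 3′ on the minus strand from 250 bases before the start to 30 bases after it. Capitals mark the GR half-site TGTTCT, read here on the opposite strand as AGAACA.
Outer FKBP5 promoter, GRCh38.p14 chr6:35728554-35728833, minus strand: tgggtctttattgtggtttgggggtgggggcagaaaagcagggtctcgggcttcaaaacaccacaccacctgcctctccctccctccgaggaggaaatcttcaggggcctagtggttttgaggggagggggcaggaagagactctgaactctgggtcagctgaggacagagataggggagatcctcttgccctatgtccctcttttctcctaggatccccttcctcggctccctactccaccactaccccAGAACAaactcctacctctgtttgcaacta
Inner FKBP5 promoter, GRCh38.p14 chr6:35688886-35689165, minus strand: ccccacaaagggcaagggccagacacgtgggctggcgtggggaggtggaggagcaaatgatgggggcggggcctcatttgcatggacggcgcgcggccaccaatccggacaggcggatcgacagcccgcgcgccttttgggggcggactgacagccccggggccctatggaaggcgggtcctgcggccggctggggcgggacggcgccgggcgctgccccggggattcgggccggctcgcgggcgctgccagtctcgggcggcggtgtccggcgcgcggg
The half-site was matched once in the outer promoter, beginning on its first transcribed base, and not in the inner one. The search covered both strands of the table's 300-base windows. By the same search 14.8% of 35116 promoters held a half-site. The full GR palindrome, AGAACA followed after any 3 bases by TGTTCT, was matched in neither FKBP5 promoter and in 0.00285% of all promoters. The estrogen response element, GGTCA followed after any 3 bases by TGACC, was also matched in neither, and in 0.0570% of all. A match describes letters only, and no match says nothing about binding elsewhere. The inner promoter had the higher GC content over 300 bases, 76.0% beside 55.7% in the outer one. These windows are in another build than the peaks and were not moved between builds, and the sequences under the GR peaks are not shown because no hg19 genome was used here.

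GR was called at 4 places of the locus, and each was called in both GR lists. They are numbered from the gene outwards. Site GR1 lay inside the gene, its dexamethasone summit 5.92 kb from the 5′ end. GR2 lay 0.543 kb inside the gene. GR3 lay 3.41 kb upstream of the 5′ end, and GR4 50.0 kb upstream. All 4 combination sites overlapped a dexamethasone site, where 63.1% of all combination GR sites did, and all 4 dexamethasone sites overlapped a combination site, where 56.8% of all dexamethasone GR sites did. The summits of the 2 lists were 3, 7, 16 and 2 bp apart at GR1, GR2, GR3 and GR4. The median over the 1013 GR sites that pair one to one between the lists was 13 bp.

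**Figure D1:**
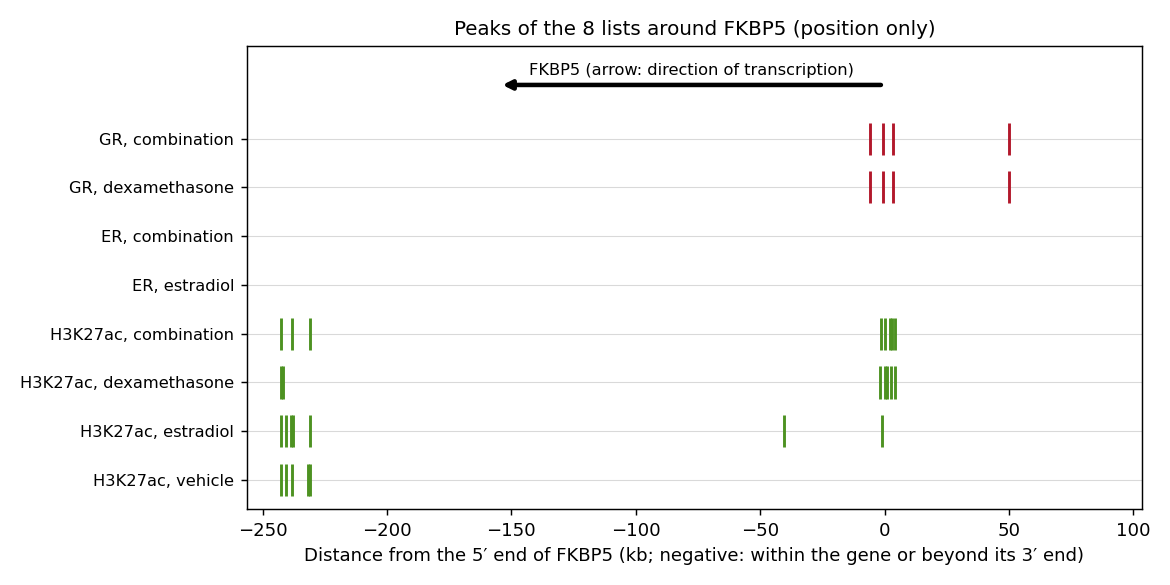
Positions of all 35 peaks in the 8 lists, in kb from the 5′ end of FKBP5 (x axis; negative values lie in the gene or beyond its 3′ end), with 1 row for each list and 1 tick at the centre of each peak; heights carry no value. The GR rows each hold 4 ticks at like places, the ER rows hold 0, and H3K27ac ticks at the 5′ end appear with the combination, dexamethasone and estradiol and not with vehicle.

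GR3 was the strongest of the sites in both lists. With the combination it spanned 35699694 to 35699886, with a pileup of 73.0, a fold enrichment of 35.08 and a −log10 q of 98.97, rank 87 of 1628. With dexamethasone it spanned 35699661 to 35699937, with a pileup of 134.5, a fold enrichment of 61.34 and a −log10 q of 213.12, rank 12 of 1815. It thus stood in the top 5.34% of the combination list and the top 0.661% of the dexamethasone list.

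GR2, next to the 5′ end, came second of the 4 by −log10 q in both lists. With the combination it spanned 35695808 to 35696024 and had a −log10 q of 40.29, rank 436. With dexamethasone it spanned 35695780 to 35696058 and had a −log10 q of 119.33, rank 95. Its fold enrichment was 15.98 with the combination, below the 18.85 of GR1 in the same list, and 41.57 with dexamethasone, above the 32.07 of GR1. The order of GR1 and GR2 in the combination list therefore depends on whether −log10 q or fold enrichment is read.

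GR1 spanned 35690426 to 35690558 with the combination (−log10 q 32.67, rank 566) and 35690307 to 35690592 with dexamethasone (66.09, rank 264). GR4, the site far upstream, spanned 35746355 to 35746464 with the combination (22.62, rank 875) and 35746348 to 35746476 with dexamethasone (32.81, rank 621). It was the weakest of the sites in each list and lay outside the stronger 50% of the combination list. The combination peaks were the narrower ones at every site, with widths of 133, 217, 193 and 110 bp at GR1 to GR4, against 286, 279, 277 and 129 bp with dexamethasone. Over the whole lists the median width was 152 bp with the combination and 148 bp with dexamethasone. The part of depth and peak strength in these widths was not tested.

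Ranks can be set side by side over the 1013 one-to-one pairs, since both lists then hold the same sites. Among these, GR3 ranked 73 with the combination and 11 with dexamethasone. GR2 ranked 342 and 93 in the same order, GR1 432 and 260, and GR4 627 and 563. All 4 sites thus stood lower in the combination order, by 62 (GR3), 249 (GR2), 172 (GR1) and 64 (GR4) places. Sites high in the dexamethasone order, such as GR3 and GR2, had little room to rise. The comparison with all pairs that follows is not matched for starting rank. Over all pairs the median difference was 9 places, with quartiles at -105 and 127, so GR1 and GR2 lay beyond the upper quartile and GR3 and GR4 within it. The combination GR library was the shallower one, with 5206574 usable tags against 6353466 with dexamethasone, and the part of depth in these ranks was not tested.

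**Figure D2:**
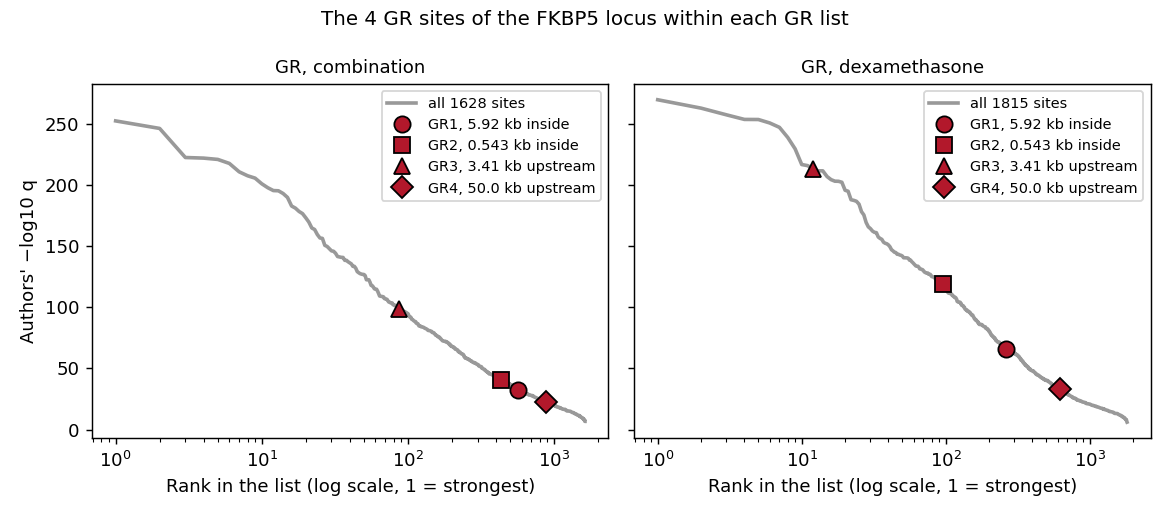
The authors' −log10 q (y axis) against rank in the list (x axis, log scale) for all GR sites of the combination list (left, 1628 sites) and of the dexamethasone list (right, 1815 sites), with the 4 FKBP5 sites as symbols and the legend giving the distance of each dexamethasone summit from the 5′ end. The order GR3, GR2, GR1, GR4 is the same in both panels, and GR3 has rank 87 on the left and rank 12 on the right.

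The GR sites were gathered at the 5′ end of the gene. GR1, GR2 and GR3 lay within 9.63 kb, with 5.37 kb between the summits of GR1 and GR2 and 3.96 kb between those of GR2 and GR3. In each list 3 of the 4 sites had 2 or more other sites within 10 kb, where 7.49% of all combination sites and 7.11% of all dexamethasone sites did. The remaining 149 kb of the 155 kb gene body, on the 3′ side of GR1, held no GR peak in either list at the authors' p cutoff of 1e-10. Weaker binding there was not detectable from these lists.

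When dexamethasone GR sites with summits at most 10 kb apart were joined, 44 clusters of 3 or more sites were found, and the FKBP5 group was one of them. In 11 of these clusters every site was also called with the combination. Of those 11, 3 held no ER site in either list: the FKBP5 cluster, 1 on chromosome 21 (44933016 to 44939099) and 1 on chromosome 4 (23784389 to 23785061). The FKBP5 cluster held the highest −log10 q of these, 213.12, beside 126.97 on chromosome 21 and 19.72 on chromosome 4. Vehicle H3K27ac within 1 kb was called at 0 peaks for the FKBP5 cluster and at 2 peaks for each of the other two. These criteria were chosen after the FKBP5 values were seen and describe the locus only.

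ER was not called anywhere in the window. Of 8429 windows of 360 kb laid end to end over the genome, FKBP5 included, 78.2% held no ER site in either list. Most of these windows had no GR site either, as 14.1% of the 8429 held 1 or more dexamethasone GR sites. Among the 30 windows with 4 or more GR sites in both lists, 1 held no ER site. The absence of ER was thus common for the length and rare among windows with as many GR sites. The nearest ER site lay 361.9 kb from GR1 in the combination list and 361.9 kb from it in the estradiol list. None of the 4 combination GR sites overlapped a combination ER site, where 47.2% of all combination GR sites did. Of the 4 dexamethasone GR sites 0 overlapped an estradiol ER site, where the share over the list was 20.1%.

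Acetylation at the 5′ end of FKBP5 was called with both treatments that contain dexamethasone, at 1 weak peak with estradiol, and not with vehicle. With the combination, 5 peaks covered 5364 bp within 10 kb of the 5′ end. With dexamethasone, 5 peaks covered 5002 bp. With estradiol there was 1 peak of 466 bp. With vehicle there was none. The nearest vehicle peaks lay 230.3 kb away on the 3′ side and 192.7 kb away on the 5′ side. The vehicle library had the most usable tags, but the deeper of library and control was scaled down in calling. The part of depth was not tested. The lowest pileup in the whole vehicle list was 15.13, and the lowest among its peaks in the window was 28.75. Peaks were called by p-value against control, so neither value is a reporting level at the 5′ end. All of the H3K27ac peaks at the 5′ end lay between 2.70 kb inside the gene and 4.71 kb upstream.

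In the combination and dexamethasone lists, the strongest acetylated peaks lay on both sides of GR2. With the combination, 35696044 to 35697440 had a −log10 q of 107.97 (rank 1110 of 20873) and a pileup of 103.0, and its summit was 0.100 kb from the 5′ end of the gene. Its neighbour inside the gene, 35694050 to 35695879, had a −log10 q of 99.56 (rank 1314). With dexamethasone the stronger of the pair was the one inside the gene, 35693696 to 35695778, with a −log10 q of 98.10 (rank 666 of 15192). Its partner across the 5′ end, 35696133 to 35696831, had a −log10 q of 80.35 (rank 1015) and a summit 74 bp from the 5′ end. With estradiol the only peak here was 35695340 to 35695805, with a −log10 q of 20.83, rank 17979 of 23888. It lay in the weaker 50% of its list, while the 4 peaks just named lay in the top 6.68% of theirs.

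A further block of acetylation lay upstream, around GR3. With the combination its peaks were 35698528 to 35698959 (−log10 q 19.40), 35699248 to 35699703 (31.55) and 35699858 to 35701106 (74.91). With dexamethasone they were 35697353 to 35697749 (19.31), 35698513 to 35699134 (30.77) and 35699903 to 35701103 (46.27). The peak beyond GR3 was the strongest of this block in both lists. Neither estradiol nor vehicle had a peak in it.

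GR3 lay in a gap between acetylated peaks, and GR2 did so in the dexamethasone list. With dexamethasone the H3K27ac peaks beside GR2 ended 76 bp before its summit on the 3′ side and began 279 bp after it on the 5′ side. Beside GR3 they ended 677 bp before the summit and began 92 bp after it. With the combination the gap at GR3 ran from 92 bp on one side of its summit to 63 bp on the other, while the summit of GR2 fell inside an acetylated peak whose partner began 197 bp away. Such a position, outside H3K27ac peaks with one within 1 kb on each side, was held by 1 of 4 combination GR summits with combination H3K27ac, where 12.9% of all did, and by 2 of 4 dexamethasone GR summits with dexamethasone H3K27ac, where 17.0% did. GR was mapped at 1 h and H3K27ac at 8 h, so GR occupancy at the time of acetylation was not measured.

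**Figure D3:**
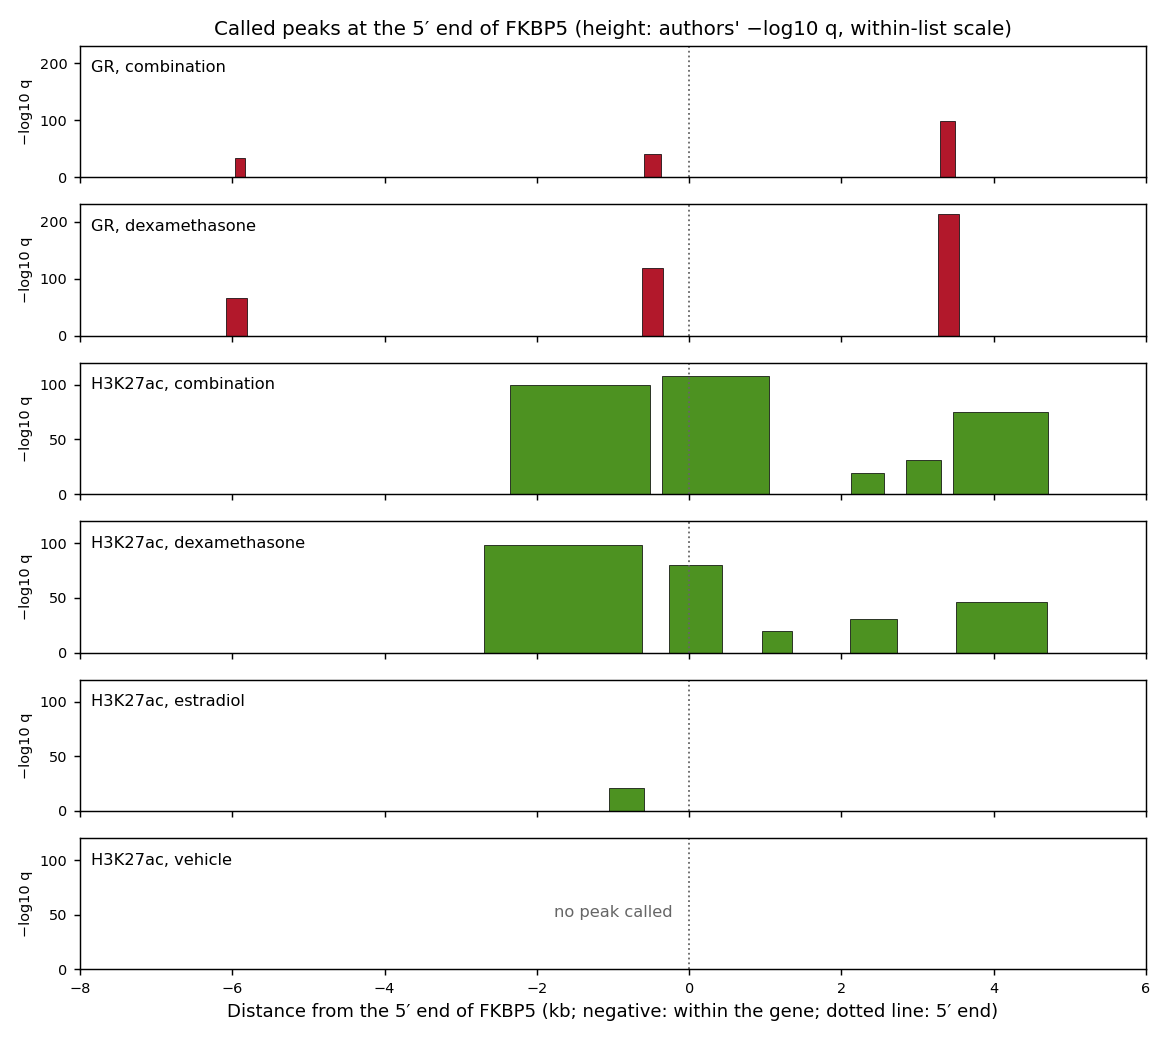
Peaks from 8 kb inside FKBP5 to 6 kb upstream of it, with distance from the 5′ end in kb on the x axis, each box spanning 1 peak and its height giving the authors' −log10 q (GR in red, H3K27ac in green; 1 panel for each list, heights comparable only within a panel). With the combination and with dexamethasone 5 H3K27ac boxes stand around GR2 and GR3, with estradiol there is 1 box at a −log10 q of 20.83, and with vehicle there is none.

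Counts of GR sites on acetylation differed between overlap and distance at these gaps. Of the 4 combination GR sites, 2 overlapped combination H3K27ac (47.7% over the list), 0 dexamethasone H3K27ac (33.7%), 0 estradiol H3K27ac (42.9%) and 0 vehicle H3K27ac (33.3%). Of the 4 dexamethasone GR sites, 2 overlapped combination H3K27ac (43.9%), 1 dexamethasone H3K27ac (36.9%), 1 estradiol H3K27ac (39.7%) and 0 vehicle H3K27ac (37.2%). The dexamethasone peak of GR2 missed dexamethasone H3K27ac by 2 bp. Counting peaks within 1 kb, 2 of 4 combination GR sites had combination H3K27ac (59.8% over the list) and 0 had vehicle H3K27ac (41.6%). In the same way 2 of 4 dexamethasone GR sites had dexamethasone H3K27ac (52.8%) and 0 had vehicle H3K27ac (45.5%).

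GR1 and GR4 had no acetylation within 1 kb in any list. The closest H3K27ac peak to GR1 lay 3.49 kb from its combination peak with the combination and 3.10 kb from its dexamethasone peak with dexamethasone. For GR4 the distances were 45.2 kb in both cases. All 4 GR sites were thus alike in being called with both treatments and away from ER, and differed in acetylation.

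The 4 H3K27ac lists merged into 12 regions in the window, of which 5 were gained, that is present with a treatment and absent with vehicle, with the combination. Over the genome 14.9% of 27111 merged regions were gained with the combination. With dexamethasone 4 of the 12 were gained (10.8% over all) and with estradiol 3 (21.8%). Regions at the 5′ end lay close together and were counted separately here. With peaks up to 1 kb apart joined, 1 region was gained with the combination, 1 with dexamethasone and 2 with estradiol. Among 4028 regions gained with the combination and ordered by −log10 q, the region across the 5′ end (35696044 to 35697749) ranked 19 and the region inside it (35693696 to 35695879) ranked 27. Among 2940 gained with dexamethasone they ranked 8 and 4. The upstream region 35699858 to 35701106 ranked 64 in each of these orders. The locus was selected for a strong H3K27ac gain with dexamethasone at its 5′ end, so the high dexamethasone ranks restate that choice. With estradiol the only gained region at the 5′ end, 35693696 to 35695879, ranked 2467 of 5919.

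Estradiol alone had 1 more peak inside the gene, 35655907 to 35656193, with a pileup of 25.0 and a −log10 q of 21.22 (rank 17700 of 23888). It was absent from the other H3K27ac lists, and its summit was 40.4 kb inside the hg19 body. The inner RefSeq start lies 39.7 kb inside the outer one in GRCh38.p14. The 2 distances were measured in different builds and the peak was not assigned to that promoter. No GR or ER site was called within 1 kb of it.

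On the far side of the gene the lists ran in another order. Beyond the 3′ end, between 75.3 and 88.8 kb from it, H3K27ac was called at 3 peaks covering 3282 bp with the combination, 2 peaks covering 1179 bp with dexamethasone, 5 peaks covering 4974 bp with estradiol and 5 peaks covering 4843 bp with vehicle. The next protein-coding genes on this side are TULP1 and then TEAD3 in the GRCh38.p14 RefSeq order, and ARMC12 is the next on the 5′ side. Which of them the acetylated peaks lie in was not determined, because that table is in another build.

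The widest 3′ region, 35452545 to 35454919, was present in all 4 lists. Its strongest peak had rank 2490 of 20873 with the combination, 4638 of 15192 with dexamethasone, 2667 of 23888 with estradiol and 1761 of 21120 with vehicle. With dexamethasone it was called as 2 shorter peaks of 759 and 420 bp. A second region, 35464963 to 35466083, was present with the combination (−log10 q 44.54), estradiol (133.74) and vehicle (75.69) and not with dexamethasone. In the estradiol list it was the stronger of these regions, with rank 1656 of 23888. The weaker regions 35455662 to 35456324 and 35464415 to 35464765 were in the vehicle list and in neither list with dexamethasone. The first of these was also called with estradiol, and the second was not. A region at 35458068 to 35458903 was called with the combination, estradiol and vehicle, and a narrow one at 35457635 to 35457907 with estradiol alone.

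In the whole window 2 of 12 regions were lost, that is present with vehicle and absent with the treatment, with the combination (15.1% over all regions), 4 with dexamethasone (35.3%) and 1 with estradiol (4.60%). All of the lost regions lay beyond the 3′ end. This follows from the definition, because all 5 vehicle peaks of the window lay there. The dexamethasone H3K27ac list was also the shortest over the genome, with 15192 peaks covering 12.4 Mb, against 21120 peaks covering 18.0 Mb with vehicle. Its library had 33% duplicate tags, against 18% with vehicle. Their part in the losses was not tested. Summed over the window, H3K27ac covered 8646 bp with the combination, 6181 bp with dexamethasone, 5727 bp with estradiol and 4843 bp with vehicle, so coverage of the window was higher with dexamethasone than with vehicle, and coverage over the whole list was lower.

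**Figure D4:**
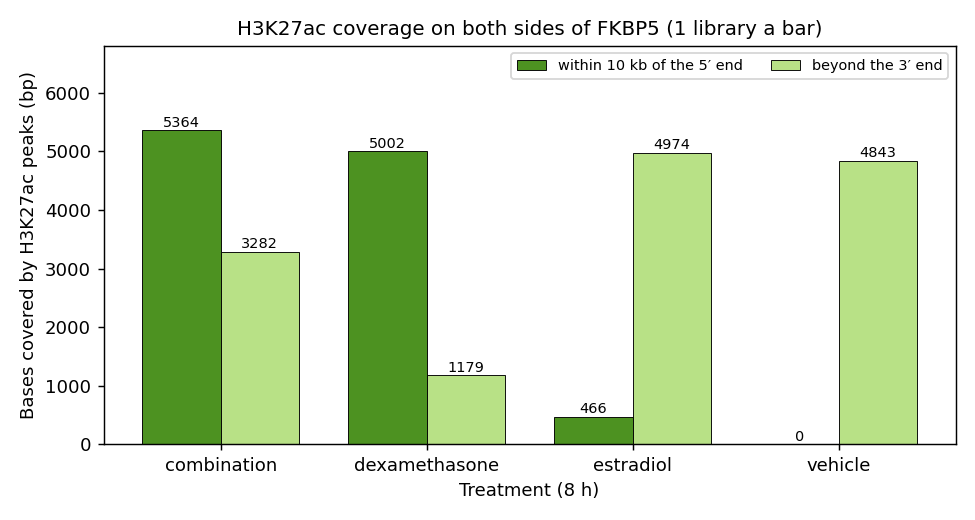
Bases covered by H3K27ac peaks (y axis, bp) for each treatment (x axis), within 10 kb of the 5′ end of FKBP5 (dark bars) and beyond its 3′ end (light bars); each bar is 1 library, so there is no error bar. The dark bars are 5364 and 5002 bp with the combination and dexamethasone, against 466 and 0 bp with estradiol and vehicle, and the light bar is lowest with dexamethasone, at 1179 bp.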

How the data were processed

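Peak lists of GR, ER and H3K27ac from Ishikawa cells were used, 8 of the 11 samples of the series, with 1 library per group. The submitters' processing notes name Bowtie 1.1.2, MACS2 2.1.0.20140616 and the hg19 build. Peaks were called against a control at a p cutoff of 1e-10, keeping at most 1 tag per position and scaling down the deeper of library and control, per the file headers. The pileup in the deposited lists is a signal: scaled coverage by fragments at the summit. The authors deposited peak significance as −log10 p-value and −log10 q-value. The deposited fold enrichment is the ratio of pileup to local control. The headers say that q-values were not calculated, but that column holds positive values in every list, and it was used to rank peaks. Positions are 1-based.

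Overlap means at least 1 shared bp. Overlapping or bookended H3K27ac peaks of the 4 lists were merged into regions. The overlap and coverage code (Python 3.11.15) was tested on simulated intervals. The window, its peaks and the measures were chosen with earlier results of these data known. All receptor peaks of the window are named, with the H3K27ac regions near them, those not shared by all lists and the strongest. Depth limits each list to peaks past the cutoff, and no count of tags at uncalled places was used.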

Additional observations from a re-analysis of the deposited data

How the results depend on the processing

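Across 74 alternative values for 32 results, 53 stayed within 1.5 times the value reported and 21 moved further. Those that stayed include the number of GR sites called with both treatments (4, or 3 with the stronger 50% of each list) and the rank of GR3. That rank was 106 by fold enrichment and 96 by pileup with the combination, and 17 and 15 with dexamethasone. The ER counts of 0 are also among the 53, but their settings could not have changed them. Those settings kept part of an empty set or reached 1 kb, while the nearest ER site lay 361.9 kb from GR1. Within the gene body only, there were 2 GR peaks with the combination and 2 with dexamethasone, and 2, 2, 2 and 0 H3K27ac peaks with the combination, dexamethasone, estradiol and vehicle. With the stronger 50% of each list, the window held 2 H3K27ac peaks with estradiol and 3 with vehicle, estradiol H3K27ac covered 3202 bp and met 0 dexamethasone GR sites, 0 regions were gained with estradiol, and 1 and 2 were lost with the combination and dexamethasone. Counting intervals within 1 kb, dexamethasone H3K27ac met 2 combination and 2 dexamethasone GR sites, and estradiol H3K27ac met 1 combination GR site. Joining peaks up to 1 kb apart left 1 region gained with the combination, 1 with dexamethasone and 2 with estradiol. It left 0, 2 and 0 lost with the combination, dexamethasone and estradiol, because neighbouring regions then count as one. The order of the treatments by gained regions thus depends on how peaks are joined. No paired analysis was possible because each group holds 1 library. Each list reports only peaks past the authors' cutoff, so an absent peak is not a level of 0.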
